A study of Mus musculus with 6 samples.

Results

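Chemokines are small secreted proteins that guide the movement of leukocytes, and the genes described here are the chemokine ligands and receptors of mouse atria. They were the rows of the deposited table whose gene name began with Ccl, Cxcl, Ccr, Cxcr or Ackr followed by a digit, began with Cx3c, or was Xcl1 or Xcr1, in upper or lower case. This rule gave 70 of the 43432 gene rows, 47 of ligands and 23 of receptors, 63 on chromosomes and 7 on unplaced scaffolds. Of these, 35 had a mean below 10 normalized counts over the 6 samples and were not tested, and 10 of those 35 were at 0 in every sample. RNA sequencing compared atria of WT C57/Bl6 mice (genotype label C57/Bl6J) that had eaten either an HFD or control chow from 6 weeks of age for 10 weeks, with right and left atrial tissue taken for RNA and 3 samples per diet. The sources used here give no other allele or agent for either group and do not state whether a sample held 1 animal or several, so the p-values measure the spread between these samples. The labels contradict themselves on diet. Titles and table columns name the HFD samples as described here, but each sample's treatment entry names the opposite diet. Groups follow the titles, and every direction below would turn if the treatment entries were right.

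The values are read counts divided by 1 size factor per sample, called normalized counts. Reads on genes numbered 15874251 to 17351467 in 5 samples and 28971508 in control sample 2, where 30.7% of them were mitochondrial against 19.5% to 24.4% elsewhere. At 3 reads, the smallest number taken as a signal, a gene would have 2.05 to 3.41 normalized counts, and this floor covers counting error only. The tissue label was borne out by the atrial gene Myl7, at 27168 to 60190 normalized counts, beside 2290 to 8176 for the ventricular gene Myl2. The 6 genes of the atrial myocyte list summed to 637230 to 1071700 in each sample, but include Myh6 and Tnnt2, which are not particular to atria. The 4 ventricular ones summed to 6882 to 17399, the highest in control sample 2.

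As background, ligands are classed by the spacing of their first cysteines into CC, CXC, CX3C and XC families, and most signal through receptors coupled to inhibitory G proteins. A ligand often binds several receptors and a receptor several ligands. The atypical receptors bind chemokines without G protein signaling and remove them or move them across cells. In the heart, resident macrophages, endothelium and fibroblasts make chemokines, and the ligands of Ccr2 draw monocytes from blood.

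A pair of CC ligands rose in the HFD atria, and with all 6 samples no member was called lower at an adjusted p under 0.05. Ccl6 and Ccl9, ligands of Ccr1 that are made mainly by myeloid cells, had 2.51 and 2.94 times the control mean. In limma on log2(normalized count + 1), with Benjamini-Hochberg adjustment over 15275 genes, 2 of the 35 tested members had an adjusted p under 0.05 and were higher, where 0.484% of all genes were, and 0 were lower, where 0.262% of all genes were. DESeq2 and edgeR on the recovered reads also called no member lower. At an unadjusted p under 0.05, 6 members were higher and 1 was lower, where 6.66% and 5.55% of all genes were. The 3 HFD and 3 control values did not overlap, with HFD higher, for 8 of the 35 tested members, where 8.86% of all genes were. With HFD lower this held for 3 of the 35, which is near the 9.17% of all genes. Of these members, Ccr1 and Xcr1 had control means of 5.31 and 6.46 and reached the mean of 10 only through their HFD values. Cxcl1 had an HFD mean of 9.85 and reached it only through its controls. Ccr1 is also among the members higher at an unadjusted p. By the sign of the log2 fold change, as in all such counts below, 22 members lay above the control mean and 13 below. Their median log2 fold change was 0.21, beside 0.0049 for all genes, of which 50.8% lay above. For a single gene, the smallest p of a two-sided exact permutation test of 3 against 3 samples is 0.1.

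**Figure D1:**
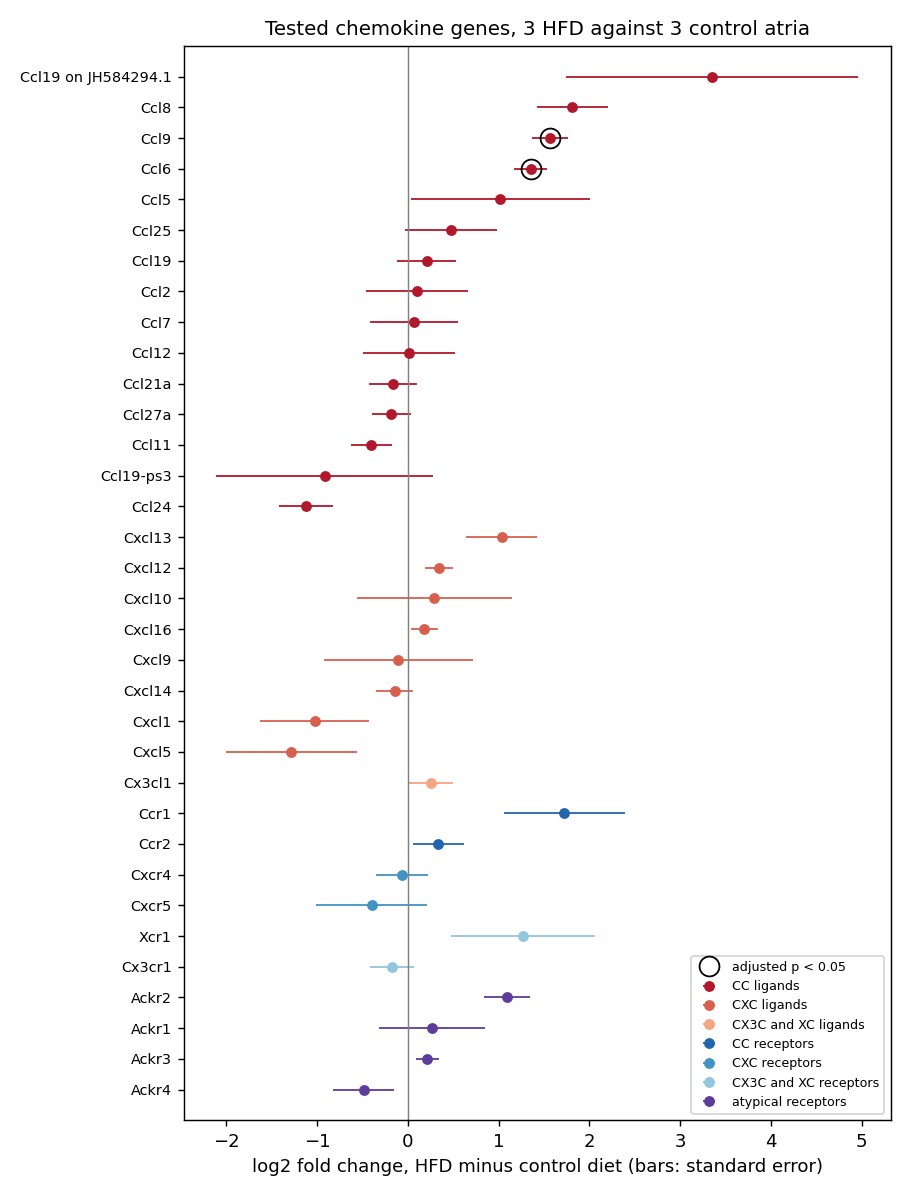
The x axis gives the log2 fold change, HFD minus control diet, of the tested members described here in order of role, with bars for the standard error and circles around adjusted p under 0.05. Ccl9 at 1.57 and Ccl6 at 1.36 are circled and have short bars, whereas the Ccl19 copy on a scaffold at 3.36 and Ccl5 at 1.02 have long ones.

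By role, 15 of 32 rows of CC ligands were tested, 8 of 13 of CXC ligands, 1 of 2 of CX3C and XC ligands, 3 of 11 of CC receptors, 2 of 6 of CXC receptors, 2 of 2 of CX3C and XC receptors and 4 of 4 of atypical receptors. The 24 ligand rows tested had a median log2 fold change of 0.14, with 15 above and 9 below. The 11 receptor rows had a median of 0.27, with 7 above and 4 below. The first genes to describe are those of the 2 ligands that rose and of the pair that came next in p. Their promoter windows, 250 bases before to 50 after the RefSeq start (GRCm38.p6), are shown because Ccl6 and Ccl9 are neighbors that moved together. In the windows of Ccl6 (chr11:83593038-83593337, minus strand) and Ccl9 (chr11:83578587-83578886, minus strand), capitals mark the stretch that aligned between them.
Ccl6: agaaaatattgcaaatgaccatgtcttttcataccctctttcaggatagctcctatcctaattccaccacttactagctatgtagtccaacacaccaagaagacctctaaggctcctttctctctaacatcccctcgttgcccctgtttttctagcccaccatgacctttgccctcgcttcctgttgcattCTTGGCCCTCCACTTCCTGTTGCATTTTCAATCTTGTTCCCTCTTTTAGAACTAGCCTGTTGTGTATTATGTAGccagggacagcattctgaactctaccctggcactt
Ccl9: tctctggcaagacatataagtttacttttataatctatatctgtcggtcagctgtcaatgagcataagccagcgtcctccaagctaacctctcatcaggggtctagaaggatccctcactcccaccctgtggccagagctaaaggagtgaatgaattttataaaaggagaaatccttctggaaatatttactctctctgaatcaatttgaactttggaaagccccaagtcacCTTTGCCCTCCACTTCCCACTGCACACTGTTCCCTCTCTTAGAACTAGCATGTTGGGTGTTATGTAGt
In this local alignment 59 of 67 aligned base pairs were identical (88.1%). The stretch ran from base -59 to 15 of Ccl6 and from base -18 to 49 of Ccl9, counted from the start. Its score ranked 5 of the 1035 pairs of members with a window, after the pair of Ccl27 genes and the 3 pairs among Cxcl1, Cxcl2 and Cxcl3.

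For Ccl8 (chr11:82114935-82115234, plus strand) and Ackr2 (chr9:121898105-121898404, plus strand), capitals mark motif matches, TATAAA in the first and the kappa B consensus in the second.
Ccl8: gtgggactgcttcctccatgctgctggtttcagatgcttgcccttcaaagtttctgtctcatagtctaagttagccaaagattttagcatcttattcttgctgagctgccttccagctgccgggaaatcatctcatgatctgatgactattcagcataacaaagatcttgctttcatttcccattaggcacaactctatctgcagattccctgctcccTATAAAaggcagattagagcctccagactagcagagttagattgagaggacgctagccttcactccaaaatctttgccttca
Ackr2: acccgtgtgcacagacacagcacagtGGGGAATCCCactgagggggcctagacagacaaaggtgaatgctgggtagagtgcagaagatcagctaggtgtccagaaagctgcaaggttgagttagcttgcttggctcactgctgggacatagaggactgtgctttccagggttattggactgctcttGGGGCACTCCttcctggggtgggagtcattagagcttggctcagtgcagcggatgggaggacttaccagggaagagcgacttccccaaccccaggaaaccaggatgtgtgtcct
The kappa B consensus, the letters bound by NF-kappa B factors, was found in 10 of 53 windows of 46 member genes (18.9%), beside 4.51% of the 32851 windows of all genes, with both strands searched. Genes of members with a match were Ackr2, Ccl9, Ccl20, Ccl27a, Ccr3, Ccr6, Cxcl1, Cxcl2, Cxcl3 and Cxcl10. TATAAA was in 15 member windows (28.3%), beside 13.6% of all, with a match in the Ccl8 window at bases -32 to -27. The core of the interferon response element was in 3 (5.66%), beside 3.44% of all, namely Ccl19, Cxcl10 and Cxcl14. The gamma-activated core TTCNNNGAA was in 4 (7.55%), beside 8.30% of all. None of these motifs lay in the Ccl6 window, whereas Ccl9 had a kappa B match at bases -35 to -26 and 3 TATAAA matches, of which the pair at bases -94 to -89 and -92 to -87 overlap on opposite strands. Such matches describe letters and are not measured binding sites. The table held no window for Ccl24 or Ccl5.

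Ccl6 (ENSMUSG00000018927, chr11:83587882-83593087, GRCm38) had 1009, 1166 and 1224 normalized counts in HFD samples 1, 2 and 3 and 593, 402 and 359 in control samples 1, 2 and 3. The lowest HFD value was thus well above the highest control value. The means were 1133 ± 112 (SD, n = 3) and 451 ± 125, and the log2 fold change was 1.36 (SE 0.18, limma adjusted p = 0.012). Ccl9 (ENSMUSG00000019122, chr11:83572919-83578636) had 513, 511 and 687 normalized counts in the HFD samples and 234, 203 and 144 in the controls. Again no values overlapped, and control sample 1 was the highest control for both genes. The means were 570 ± 101 and 194 ± 46, and the log2 fold change was 1.57 (SE 0.20, limma adjusted p = 0.0094). The number of Ccl6 counts per Ccl9 count was 1.97, 2.28 and 1.78 in the HFD samples and 2.54, 1.98 and 2.49 in the controls, so this ratio overlapped between diets. The calls depended on the variance model and on single samples. With all samples but no variance trend, neither gene passed (limma adjusted p = 0.17 for Ccl6 and 0.16 for Ccl9). Without control sample 2 neither gene passed (adjusted p = 0.076 for Ccl6 and 0.0501 for Ccl9), and Ccl6 also missed the threshold without HFD sample 2 (adjusted p = 0.052) or control sample 3 (adjusted p = 0.061), although the log2 fold changes stayed between 1.21 and 1.57 for Ccl6 and between 1.37 and 1.72 for Ccl9.

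**Figure D2:**
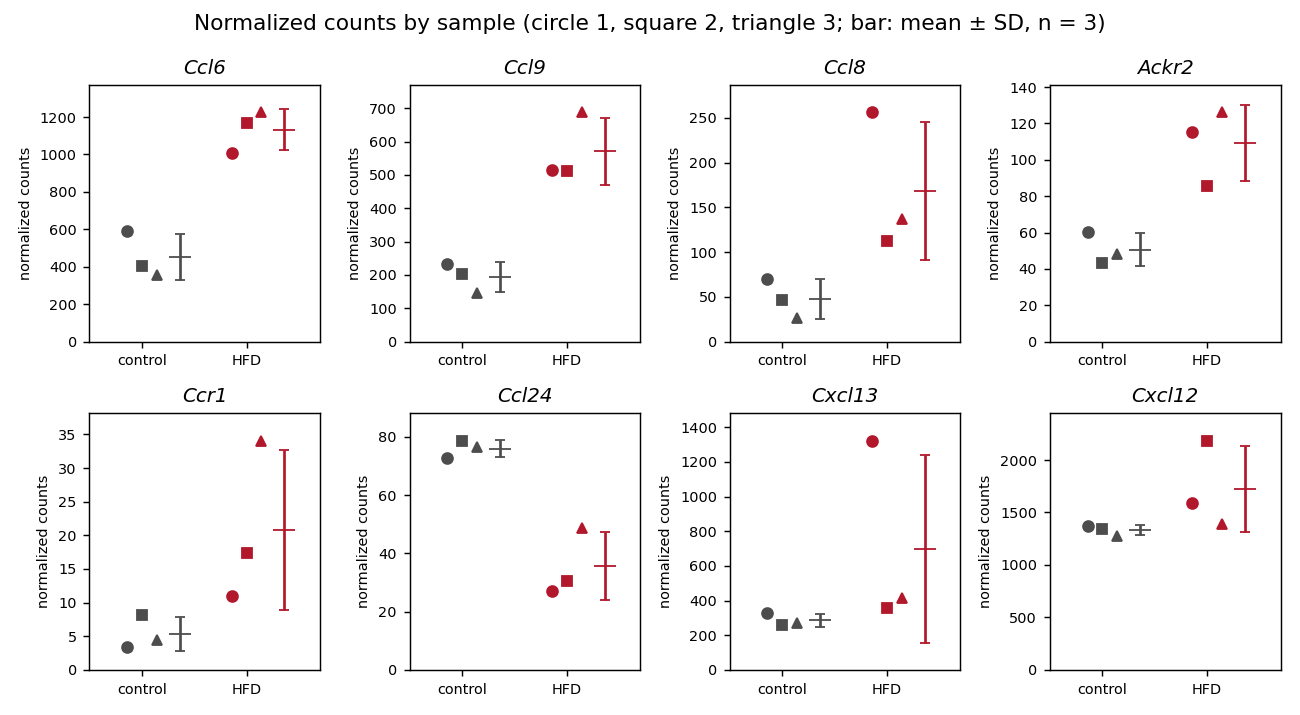
Each panel gives the normalized counts of 1 gene in the 3 control (grey) and 3 HFD (red) samples, with the mean and SD beside them. For Ccl6, Ccl9, Ccl8, Ackr2 and Ccr1 every HFD value is above every control value, for Ccl24 every HFD value is below, and HFD sample 1 stands at 1323 for Cxcl13.

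Some macrophage genes were higher in the same samples. Of 12 macrophage and monocyte markers, 11 were above the control mean (median log2 fold change 0.39). In limma 2 had an adjusted p under 0.05, Itgam (log2 fold change 1.18, adjusted p = 0.011) and Cd163 (0.95, adjusted p = 0.031). Itgam encodes an integrin chain of myeloid cells and Cd163 the hemoglobin scavenger receptor of resident macrophages. The summed level of the 12 markers was 12932 to 14618 normalized counts in the HFD samples and 9062 to 11697 in the controls, and none was at 0. The defining markers Csf1r (-0.01), Adgre1 (0.23) and Cd68 (0.37) did not pass the test. Neutrophil markers summed to 56.1 to 86.4 in the HFD samples and 28.0 to 37.0 in the controls, Ngp was at 0 throughout and Ly6g had a read in 1 sample only. Brown adipocyte markers summed to 616 to 1283 in the HFD samples and 187 to 330 in the controls, and 6 endothelium markers to 17927 to 20253 and 15191 to 15696, with none at 0 in all samples. The part of cell content in the rise of Ccl6 and Ccl9 was not tested, and in bulk tissue a change in the number of cells of a type and a change in RNA per cell cannot be told apart.

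Ccl8, a ligand of the monocyte chemoattractant group whose mouse protein acts on Ccr8, came next. It had 256, 112 and 137 normalized counts in the HFD samples and 70.5, 46.5 and 26.2 in the controls. The groups did not overlap, and HFD sample 1 was 1.86 times the next highest. The means were 169 ± 77 and 47.8 ± 22.2, and the log2 fold change was 1.81 (SE 0.39, limma unadjusted p = 0.00082, adjusted p = 0.067). Ccl8 did pass with DESeq2 on the recovered reads (adjusted p = 0.00035) but not with edgeR on the same reads (adjusted p = 0.078 with TMM or RLE), and its change without HFD sample 1 was 1.47. DESeq2 called 4 members higher, Ccl6, Ccl9, Ccl8 and Ackr2, where 1.73% of all genes were, and 0 lower, where 1.03% of all genes were.

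Ccl24, an eosinophil attractant that acts through Ccr3, was the member with the smallest p among those on the lower side. It had 27.1, 30.6 and 48.8 normalized counts in the HFD samples and 72.8, 78.7 and 76.5 in the controls. All 3 controls lay close together and above every HFD value. The means were 35.5 ± 11.7 and 76.0 ± 3.0, and the log2 fold change was -1.12 (SE 0.29, limma unadjusted p = 0.0032, adjusted p = 0.12). Without HFD sample 3, the highest of its group, the change was -1.37 and the adjusted p was 0.038. Ccl11, another eosinophil attractant of Ccr3, had 54.2, 58.1 and 57.9 normalized counts in the HFD samples and 81.7, 73.2 and 71.0 in the controls, with no overlap but a smaller change (-0.40, limma adjusted p = 0.53). The third eosinophil attractant, Ccl26, was at 0 in every sample, and Ccr3 itself had at most 4 reads in a sample.

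Ligands of the monocyte receptor Ccr2, which lie beside Ccl8, did not pass the test. Ccl2, the main monocyte attractant, had 20.1, 21.4 and 97.7 normalized counts in the HFD samples and 24.6, 32.2 and 43.7 in the controls. HFD sample 3 was more than 2 times every other sample, and the other HFD samples lay below all 3 controls. The log2 fold change was 0.10 (SE 0.56, limma adjusted p = 0.97) and became -0.63 without HFD sample 3. Ccl7 at 0.07 and Ccl12 at 0.01 had standard errors near 0.5 each, and Ccl7 became -0.33 without the same sample. Ccr2 was at 114.5 ± 32.3 normalized counts in HFD and 89.9 ± 25.4 in control samples, a log2 fold change of 0.34 (SE 0.28, limma adjusted p = 0.69).

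**Figure D3:**
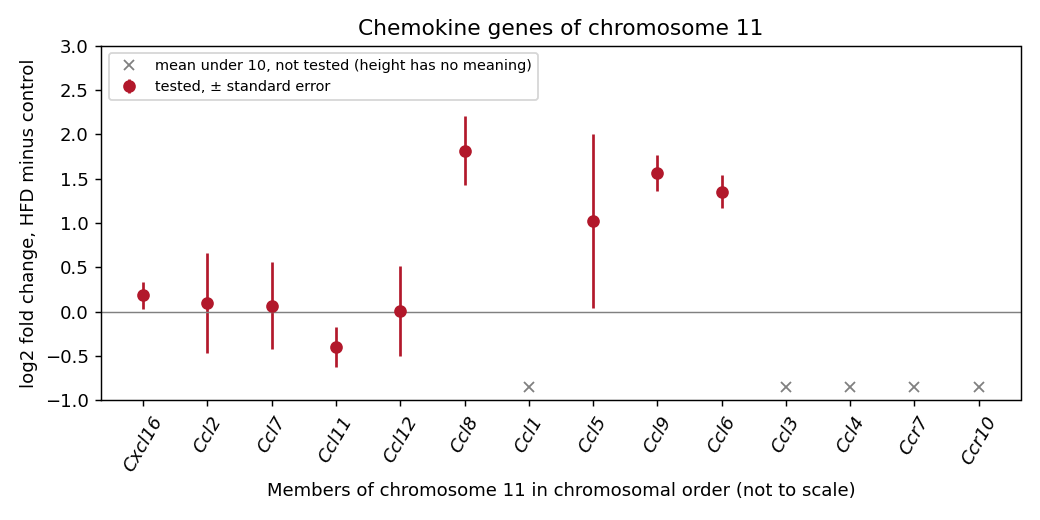
The 14 members on chromosome 11 stand in chromosomal order, not to scale, against their log2 fold change, HFD minus control, with bars for the standard error. Ccl8 sits at 1.81 and Ccl2, Ccl7, Ccl11 and Ccl12 beside it between -0.40 and 0.10, and Ccl5, Ccl9 and Ccl6 sit between 1.02 and 1.57. Grey crosses mark the 5 members that were not tested.

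Chromosome 11 held 14 members, of which 9 were tested. Apart from Cxcl16, Ccr7 and Ccr10, they fall into a group of monocyte and eosinophil attractants from Ccl2 (start 82035571) to Ccl1, and a group from Ccl5 (start 83525778) to Ccl4 (end 83664683). In the second group, Ccl9 and Ccl6 were next to each other on the same strand. Their flanking members were low or split, since Ccl3 had a mean of 1.51 normalized counts in HFD samples and 0.37 in controls, and Ccl4 had 4.39 and 4.54. Ccl5, a T cell and monocyte attractant, had 4.02, 12.2 and 63.6 normalized counts in the HFD samples and 17.9, 7.53 and 2.19 in the controls. HFD sample 3 was the highest, whereas HFD sample 1 lay below control samples 1 and 2, and the log2 fold change was 1.02 (SE 0.98, limma adjusted p = 0.74). It was 0.36 without control sample 3, 1.64 without control sample 1 and 1.87 without HFD sample 1, and without HFD sample 3 Ccl5 fell below the mean of 10.

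Among the remaining CC ligands, the lymph node attractants of Ccr7 were hard to read, because they have near-identical copies and only uniquely mapped reads were kept. Ccl21a had 308, 244 and 235 normalized counts in the HFD samples and 356, 386 and 179 in the controls, with overlap and a log2 fold change of -0.16 (SE 0.27, limma adjusted p = 0.86). Ccl19 had a log2 fold change of 0.21, and its pseudogene Ccl19-ps3 one of -0.91 (SE 1.19), with 0 in HFD sample 2. A Ccl19 copy on an unplaced scaffold had 0, 55.1 and 18.2 normalized counts in the HFD samples and 0 in all 3 controls. That copy was tested only because of its values in HFD samples 2 and 3. Its HFD mean was 8.43 times a floor of 3 reads averaged over the controls (2.90 normalized counts). This is not read as a lower bound on a difference between diets, because HFD sample 1 was at 0 too and the split of reads between copies is uncertain. HFD sample 2, the highest for that copy, was the sample at 0 for Ccl19-ps3. Summed over the 4 Ccl19 rows, the ratio of HFD to control was 1.52. Ccl25, the ligand of Ccr9, changed by 0.48 (SE 0.51) and Ccl27a, a ligand of Ccr10, by -0.18 (SE 0.21), and neither passed.

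Of the CXC ligands, none passed the adjusted threshold in limma, 1 had an unadjusted p under 0.05, and DESeq2 and edgeR called none after adjustment. Cxcl13, the B cell attractant of Cxcr5, had 1323, 357 and 417 normalized counts in the HFD samples and 326, 258 and 272 in the controls. The groups did not overlap, but HFD sample 1 was more than 3 times the next highest. The log2 fold change was 1.03 (SE 0.39, limma unadjusted p = 0.025, adjusted p = 0.32) and fell to 0.44 without HFD sample 1. Cxcr5 had 22.1, 6.12 and 10.2 normalized counts in the HFD samples and 21.3, 16.4 and 9.84 in the controls (log2 fold change -0.40, SE 0.61). The 5 B cell markers summed to 21.6 to 34.2 in HFD and 25.3 to 35.8 in control samples, with none at 0 in all.

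Cxcl12, the ligand of Cxcr4 that retains leukocyte precursors and is made by stromal cells, had 1589, 2185 and 1395 normalized counts in the HFD samples and 1375, 1342 and 1280 in the controls. HFD sample 3 was barely above the highest control. The log2 fold change was 0.35 (SE 0.16, limma unadjusted p = 0.051, adjusted p = 0.41). The neutrophil attractants Cxcl1 and Cxcl5, ligands of Cxcr2, were low. Cxcl1 had 4.02, 15.3 and 10.2 normalized counts in the HFD samples and 16.8, 16.4 and 24.0 in the controls, so the groups were just apart (log2 fold change -1.03, SE 0.60, limma adjusted p = 0.54). Cxcl5 had 3.01, 12.2 and 3.41 against 10.1, 20.5 and 13.1, with overlap and a log2 fold change of -1.28 (SE 0.73, limma adjusted p = 0.53). Cxcr2 had at most 3.01 normalized counts in a sample.

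The interferon-induced ligands Cxcl9 and Cxcl10, which act on Cxcr3 of T and NK cells, did not pass the test and were highest in 1 HFD sample. Cxcl9 had 14.1, 23.5 and 200 normalized counts in the HFD samples and 29.1, 86.2 and 33.9 in the controls. Cxcl10 had 29.1, 5.10 and 115 against 15.7, 29.4 and 21.9. HFD sample 3 was the highest sample for both, and without it the log2 fold changes went from -0.10 to -1.23 for Cxcl9 and from 0.29 to -0.74 for Cxcl10. Cxcr3, below the mean of 10, also had its highest value there, at 27.3. The remaining CXC ligands, the scavenger-type transmembrane ligand Cxcl16 (log2 fold change 0.18, SE 0.15) and Cxcl14 (-0.14, SE 0.20), overlapped between diets.

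**Figure D4:**
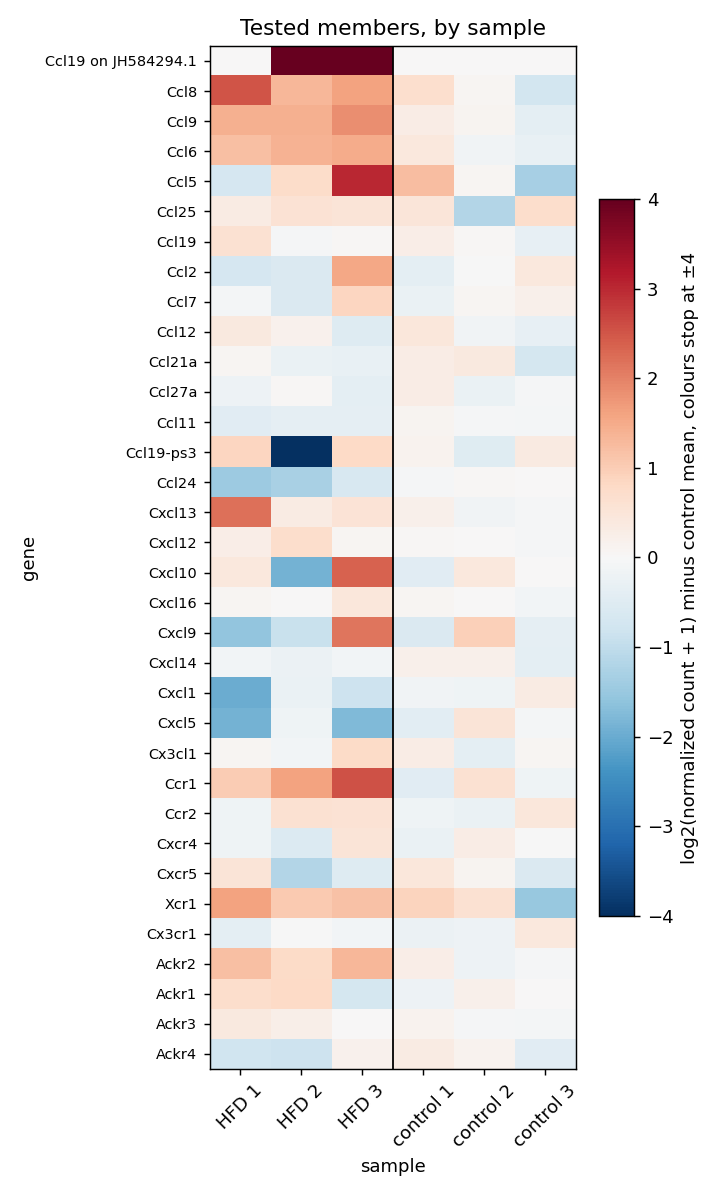
Colors give log2(normalized count + 1) minus the control mean of each tested member described here (rows, in the order of the plot of fold changes) in the 6 samples (columns), with color limits at 4. The rows of Ccl8, Ccl9, Ccl6 and Ackr2 are red in all 3 HFD samples. Those of Ccl5, Ccl2, Cxcl10 and Cxcl9 have their strongest red in HFD sample 3.

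HFD sample 3 had the highest value for 13 of the 35 tested members, where 20.3% of all genes had theirs in that sample. It was more than 2 times the next sample for 4 members, Ccl2, Ccl5, Cxcl9 and Cxcl10, where 0.759% of all genes were. HFD sample 1 was so for Cxcl13 (0.268% of all genes) and HFD sample 2 for the scaffold copy of Ccl19 (0.229% of all genes). The sums of T and NK cell markers were also highest in HFD sample 3, while B cell markers had their lowest sum there (21.6). Its 7 T cell markers summed to 154 normalized counts, beside 27.5 to 67.2 in the other samples, and its 5 NK cell markers to 68.2, beside 8.74 to 17.1. None of these was at 0 in every sample, although Ncr1 was at 0 in HFD sample 3. Cd8b1 and Gzma were higher in another sample, and Nkg7 made the largest part of the NK sum there. Cd74, the invariant chain of antigen presentation, stood at 9204 there and at 1419 to 4425 elsewhere. The part of these cells in the values of that sample was not tested.

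Fractalkine, Cx3cl1, which endothelium carries on its surface, had a log2 fold change of 0.25 (SE 0.25, limma adjusted p = 0.74), and its receptor Cx3cr1 of monocytes and resident macrophages one of -0.17 (SE 0.25, limma adjusted p = 0.83). Xcl1 had reads in only HFD sample 3 and control sample 1. Its receptor Xcr1, a marker of cross-presenting dendritic cells, was the lowest tested member, with a mean of 10.0 normalized counts. Xcr1 had 17.1, 11.2 and 12.5 normalized counts in the HFD samples and 10.1, 8.21 and 1.09 in the controls, without overlap (log2 fold change 1.27, SE 0.79, limma adjusted p = 0.58). The change was 0.51 without control sample 3 and 1.71 without control sample 1, and without any 1 of the HFD samples Xcr1 fell below the mean of 10. The 5 dendritic cell markers summed to 292 to 446 in HFD and 257 to 352 in control samples.

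Ccr1, the receptor shared by Ccl6, Ccl9, Ccl5 and Ccl3, was higher in every HFD sample but low. It had 11.1, 17.3 and 34.1 normalized counts in the HFD samples and 3.36, 8.21 and 4.37 in the controls. The means were 20.8 ± 11.9 and 5.31 ± 2.56, and the log2 fold change was 1.72 (SE 0.67, limma unadjusted p = 0.027, adjusted p = 0.33), with HFD sample 3 the highest. Without that sample Ccr1 fell below the mean of 10 and was not tested, so Ccr1 was tested only because of its HFD values. Ccr7, below the mean of 10, had 2.01, 5.10 and 4.54 normalized counts in the HFD samples and 0, 0.68 and 1.09 in the controls, which is at most 5 reads in a sample. Ccr10, also below it, had 7.03, 8.16 and 5.68 in the HFD samples and 8.96, 9.58 and 13.1 in the controls. Of the 35 members below 10, these were the 2 whose groups did not overlap. The share of all genes below 10 without overlap was not counted, so this number is not read as a result about the members.

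Cxcr4 had 99.5, 75.5 and 160 normalized counts in the HFD samples and 92.9, 136 and 109 in the controls, with overlap throughout. Its log2 fold change of -0.06 (SE 0.28, limma adjusted p = 0.96) turned positive, to 0.18 and 0.08, without HFD sample 2 or control sample 2. Ackr3, an atypical receptor that removes Cxcl12, had 1439, 1304 and 1130 normalized counts in the HFD samples and 1219, 1069 and 1045 in the controls (log2 fold change 0.21, SE 0.13, limma adjusted p = 0.56).

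Ackr2, the atypical receptor that scavenges inflammatory CC ligands, had 116, 85.7 and 126 normalized counts in the HFD samples and 60.5, 43.1 and 48.1 in the controls. The lowest HFD value was above the highest control. The means were 109 ± 21 and 50.6 ± 8.9, and the log2 fold change was 1.09 (SE 0.25, limma unadjusted p = 0.0014, adjusted p = 0.086). DESeq2 on the recovered reads gave an adjusted p of 0.032, whereas edgeR gave 0.099 with TMM or RLE. The change stayed between 0.98 and 1.25 with any sample left out, and none of those 6 fits called it. Ackr2 is known from lymphatic endothelium, and the lymphatic and macrophage gene Lyve1 rose in the same samples (log2 fold change 0.88, limma adjusted p = 0.017). The 5 lymphatic endothelium markers summed to 3172 to 3693 normalized counts in the HFD samples and 2461 to 2576 in the controls, with none at 0. Of the 5, only Lyve1 had groups that did not overlap. It had 1575, 1840 and 1480 normalized counts in the HFD samples and 966, 893 and 794 in the controls. Among the 5, 3 had a positive log2 fold change and 2 a negative one (median 0.10). The defining marker Prox1 did not pass (log2 fold change -0.03), and the part of these cells in the Ackr2 value was not tested. Ackr4, which takes up Ccl19, Ccl21 and Ccl25, changed by -0.49 (SE 0.34, limma adjusted p = 0.62), and Ackr1, the Duffy receptor of venules and red cells, by 0.27 (SE 0.59, limma adjusted p = 0.90).

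Levels of different genes were compared per kb of exon, over all annotated exons of a gene. That length can exceed that of the expressed transcript, which understates the level. On this scale, the ligands with the highest mean over all 6 samples were Ccl6 at 441, Cxcl13 at 428 and Ccl21a at 327 normalized counts per kb. Their order differed by diet, since Ccl21a was first in the controls at 353 and below Ccl8 in the HFD samples at 302. The highest receptors were Ackr3 at 359, Cxcr4 at 62.0 and Ackr2 at 25.5. Ccl6 went from 252 per kb in control to 631 in HFD samples, and Cxcl13 from 248 to 608, the latter raised by HFD sample 1, without which its log2 fold change was 0.44. Ccl9 went from 63.7 to 187 per kb and Ccl8 from 93.5 to 330, whereas Cxcl12 was at 163 and 211 and Cxcl16 at 158 and 181. Among receptors, Ccr1 was at 1.88 and 7.35 per kb and Ccr2 at 13.3 and 16.9.

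In all 6 samples 10 rows were at 0, namely Ccl20, Ccl26, Ccl27b, Ccl21b, 3 scaffold copies of Ccl21, Cxcl3, Cxcr1 and Ccr8. For each sample this allows up to the 2.05 to 3.41 normalized counts of 3 reads. The other 25 rows below a mean of 10 had a read in at least 1 sample, and the highest single value among them was the 27.3 of Cxcr3. Just outside the limit was Cxcr6, the receptor of Cxcl16, with a mean of 9.71 normalized counts.

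The signaling proteins behind chemokine receptors were described from a list of 40 genes, all of which were tested. Of these, 33 were above the control mean (median log2 fold change 0.10), and 1 had an adjusted p under 0.05 in limma. That gene was Grk5, a kinase that desensitizes G protein coupled receptors (1141, 1246 and 1053 normalized counts in HFD and 694, 743 and 717 in control samples, log2 fold change 0.67, SE 0.12, adjusted p = 0.031). At an unadjusted p under 0.05, 7 were higher and 0 lower, where 6.66% and 5.55% of all genes were. Besides Grk5 these were the arrestin Arrb1, the PI3 kinase chains Pik3r5 and Pik3cd, Jak3, Stat3 and the focal adhesion kinase Ptk2b, at 0.38 to 0.62. DESeq2 and edgeR called Grk5 alone of this list. Of 6 chemokine-related genes outside the name rule, 5 were tested and 1 had a positive log2 fold change. None had an unadjusted p under 0.05 in limma or an adjusted p under 0.05 with DESeq2 or edgeR. The untested one, the platelet chemokine Ppbp, had 8.04, 9.18 and 4.54 normalized counts in the HFD samples and 2.24, 1.37 and 1.09 in the controls. The platelet chemokine Pf4, on the other hand, overlapped (log2 fold change 0.16, SE 0.19).

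Of 7 cytokines and factors that induce chemokines, 3 were tested and none passed the adjusted threshold with limma, DESeq2 or edgeR, while 2 had an unadjusted p under 0.05 in limma. Il1b had 22.1, 27.5 and 97.7 normalized counts in the HFD samples and 5.60, 0 and 17.5 in the controls, without overlap (log2 fold change 3.02, SE 1.00, limma unadjusted p = 0.012, adjusted p = 0.23). Nfkbia, an inhibitor and target of NF-kappa B, changed by 0.32 (SE 0.11, limma unadjusted p = 0.020, adjusted p = 0.30) and Irf1 by 0.20. Tnf, Il1a, Il6 and Ifng were below a mean of 10, and Tnf was highest in HFD sample 3, at 18.2.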

How the data were processed

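RNA from 3 HFD and 3 control atria was sequenced as directional, single-end libraries. The authors aligned reads with STAR to GRCm38 (Ensembl 79), kept uniquely mapped reads, assigned them to genes with Salmon and divided counts by 1 DESeq2 size factor per sample; tool versions and the use of strand in counting are not given in the sources used here. These normalized counts (unit signal) were deposited by the authors with their own comparison (log2 fold changes, a Wald statistic and a ranking score, p-values), which was not used. Groups come from the titles. Each sample's values were whole multiples of 1 step (tolerance 0.01 reads, 100% of values), so reads could be recovered.

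Genes with a mean of at least 10 were compared with limma 3.58.1 (variance trend) in R 4.3.3 on log2(normalized count + 1), a scale that understates changes of low genes, with Benjamini-Hochberg adjustment over 15275 genes and a threshold of 0.05. One row with no gene was left out and held 0 counts. Of the gene identifiers, 97.8% matched GENCODE vM21, which gave names, positions and exon lengths. Scripts were tested on simulated data. Named in full were members with an adjusted or unadjusted p under 0.05, those without overlap whose log2 fold change was over 0.5 in size, and the 3 ligands and 3 receptors highest per kb; the others are named with their change or level. Cxcl12, Ccl2, Ccl5, Cxcl9, Cxcl10, Ccl11 and Cxcl5 were given by sample after their values were seen. Members and lists were chosen with earlier results of these data known. Protein sequences were not used here, and the values of 1 tested member and 1 marker are not reported here, though counts and sums include them. The 15 alternatives were quantile normalization, no variance trend, no filter, a minimum of 10 in every sample, a pseudocount of 0.1, the replicate number as a block, each of the 6 samples left out, and DESeq2 1.42.0 and edgeR 4.0.16 (TMM or RLE) on recovered reads.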

Additional observations from a re-analysis of the deposited data

How the results depend on the processing

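Of the 2 members higher at an adjusted p under 0.05, limma without a variance trend called 0 and DESeq2 called 4, and with a sample left out the count ranged from 0 (without control sample 2) to 2. The count of lower members ranged from 0 to 1, the latter without HFD sample 3, where Ccl24 passed. At an unadjusted p, lower members numbered 3 without a variance trend and 3 without the filter, beside 1 in the comparison as reported, and 1 to 3 with a sample left out; the cause was not tested. With the replicate number as a block, 3 members were higher (Ccl8 in addition, limma adjusted p = 0.017). Except with DESeq2, the shares of all genes called in these alternatives were not counted. The moves in these counts are therefore not read as results about the members. Deviations of samples with the same number correlated at 0.12, -0.03 and -0.0039. With 3 samples per diet these values cannot settle whether the numbers pair the samples. The log2 fold change of Cxcr4 turned to 0.18 without HFD sample 2 and 0.077 without control sample 2 (range -0.36 to 0.18 with a sample left out), and that of Ccl21a to 0.044 without control sample 2 (range -0.51 to 0.044). The direction held for 23 of the 35 tested members in every fit with a sample left out that still tested them. The share of all genes for which it held was not counted. Not all members were tested in each of the 6 fits, since Xcr1 was in 3 and Ccr1 in 5. Over its alternatives the adjusted p ranged from 1.68e-09 to 0.17 for Ccl6 and from 4.77e-10 to 0.16 for Ccl9. Quantile normalization moved the median of all genes by -0.02. With 3 samples per diet, members with means near 10 normalized counts rest on few reads, as for Xcr1, with 1 read in control sample 3 and a standard error of 0.79, so depth limits their comparison.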

Other observations

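Of 4 brown adipocyte markers, 3 were tested, and the uncoupling protein Ucp1 (706, 173 and 745 normalized counts in HFD samples, 86.2, 5.48 and 15.3 in controls, log2 fold change 4.43, limma adjusted p = 0.045) and the lipid droplet protein Cidea (1.21, adjusted p = 0.031) were higher. DESeq2 also called Dio2 and, among white adipocyte markers, Fabp4, whereas edgeR with TMM or RLE called Cidea alone of both lists. Of 7 white adipocyte markers, 6 were above the control mean, none had an adjusted p under 0.05 in limma and 1 had an unadjusted p under 0.05, and their sums overlapped (6594 to 12538 and 3517 to 6974). Leptin, Lep, was the one below the control mean, at 9.04, 2.04 and 27.3 normalized counts in the HFD samples and 44.8, 19.2 and 16.4 in the controls.

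The sums of 5 mural cell markers were 10680 to 11314 normalized counts in HFD and 9130 to 10196 in control samples, without overlap, and all 6 endothelium markers lay above the control mean (median log2 fold change 0.17). All 6 genes of the atrial myocyte list lay below the control mean, with a median log2 fold change of -0.42, as did all 4 ventricular ones, with -0.40. The sums of both lists overlapped between diets. HFD sample 3 was the highest of all samples for Nppa, Myl4 and Myh6 and within the control range for Myl7. Only Sln and Tnnt2 of the atrial list were below every control in all HFD samples. Medians were -0.15 for 5 fibroblast, -0.02 for 5 mesothelium, 0.10 for 4 tested mast cell and 0.20 for 4 tested erythroid and platelet markers, whose sums overlapped. Thymocyte markers had at most 1.14 normalized counts in a sample.

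Near-identical copies were also summed, an alternative chosen after seeing the data. The 4 Ccl19 rows together had 95.4, 90.8 and 93.1 normalized counts in HFD samples and 75.0, 52.7 and 55.7 in controls, a ratio of 1.52 (two-sided exact permutation p = 0.1, the smallest this design allows). The 6 Ccl21 rows had a ratio of 0.855 (exact permutation p = 0.8) and the 4 Ccl27 rows one of 0.871 (exact permutation p = 0.6).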
